A study of Mus musculus with 23 samples.

Results

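The m6A methylation machinery was followed here through 10 genes, Mettl3, Mettl14, Wtap, Zc3h13, Ythdf1, Ythdf2, Ythdf3, Ythdc1, Alkbh5 and Fto. They are 10 of the 22619 named genes in the transcript records, and a record belonged to a member when its gene name was that of the member. The FPKM (fragments scaled by transcript length and by the size of the library) of the records of a gene were summed. The data are RNA-seq libraries of pooled mouse embryos, collected as zygotes at 14 hours or as 2-cell embryos at 36 hours after fertilization per the labels, while the study's methods give later hours for both. The labels list B6D2F1 for every library, and per the methods the oocytes came from B6D2F1 females and sperm from C57BL/6 males. Oocytes at the germinal vesicle stage had received a control siRNA (siCtrl) or a mix of siRNAs against Etv5, Mlx or Rfx1, which encode transcription factors, before maturation in vitro and fertilization. All groups, the controls included, therefore went through injection and in vitro maturation. Each of the 8 groups had 3 libraries except the 2-cell siEtv5 group, which had 2, giving 23 in all. The study's methods state that RNA-seq was repeated for each group, but the labels do not tie libraries to separate collections of embryos, so p-values cover only how these libraries varied, and some of that variation may be technical. As the embryos were pooled, fewer cells of a kind and less RNA per cell cannot be told apart.

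N6-methyladenosine (m6A) is the commonest internal modification of messenger RNA. It is set in the nucleus by a writer complex, in which METTL3 is the catalytic subunit, METTL14 its RNA-binding partner, and WTAP and ZC3H13 hold the complex together and in the nucleus. YTH-domain proteins read the mark: YTHDC1 acts in the nucleus on splicing and export, and YTHDF1, YTHDF2 and YTHDF3 act in the cytoplasm on translation and decay. ALKBH5 and FTO are demethylases. In the mouse, YTHDF2 is a known maternal factor for the decay of oocyte transcripts, and YTHDC1 is needed for oocyte growth.

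The sequences shown first are those of the 2 exons that carried the siRfx1 result described further on. Both are stretches of 300 bases from exons very rich in purines (A and G), read from the mm9 genome, the build of the files, on the plus strand. Capitals mark runs of at least 12 purines.

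Zc3h13 exon 12, chr14:75727479-75727778: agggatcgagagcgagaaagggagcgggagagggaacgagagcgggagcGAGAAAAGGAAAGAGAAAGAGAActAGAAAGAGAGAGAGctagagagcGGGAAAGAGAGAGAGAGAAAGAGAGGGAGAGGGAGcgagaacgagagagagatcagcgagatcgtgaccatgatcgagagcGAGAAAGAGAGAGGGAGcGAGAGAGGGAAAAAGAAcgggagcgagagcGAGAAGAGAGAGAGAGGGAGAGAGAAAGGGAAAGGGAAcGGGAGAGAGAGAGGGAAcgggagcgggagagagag

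Ythdc1 exon 4, chr5:87245982-87246281: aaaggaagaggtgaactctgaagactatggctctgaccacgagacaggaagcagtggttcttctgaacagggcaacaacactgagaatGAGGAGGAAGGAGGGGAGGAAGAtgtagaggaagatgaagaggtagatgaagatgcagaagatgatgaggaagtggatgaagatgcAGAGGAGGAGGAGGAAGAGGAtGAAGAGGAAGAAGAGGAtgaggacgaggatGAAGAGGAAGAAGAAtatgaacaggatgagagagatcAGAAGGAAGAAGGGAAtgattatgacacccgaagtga

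The Zc3h13 stretch was 89% purine and its exon 82.0% purine, with a longest unbroken run of 38 bases. The Ythdc1 stretch was 78.7% purine and its exon 71.0% purine, with a longest run of 23 bases. The median over the 12459 exons used as background below was 50.4%.

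The libraries differed in depth and composition in ways that bear on the values. Aligned bases ran from 119 to 991 Mb per library, and the 3 siRfx1 2-cell libraries had 174, 119 and 123 Mb against 726 to 967 Mb in the siCtrl 2-cell libraries. In the former 7378 to 8071 genes reached 1 FPKM, and in the latter 10567 to 10729. The summed FPKM of the oocyte and maternal marker list was 677 to 819 in siRfx1 2-cell embryos, 351 to 415 in siCtrl and 150.3 to 271 in siMlx. In siEtv5 2-cell embryos it was 545 to 563. Zp2 of that list was at 0 in all siRfx1 and all siMlx 2-cell libraries but not in all siCtrl ones, so not every marker followed the sum. The summed FPKM of the 2-cell marker list was 114 to 154 in siRfx1, 248 to 384 in siCtrl, 581 to 741 in siEtv5 and 48.1 to 166 in siMlx. Cumulus cell markers summed to 0 to 16.1 FPKM over all libraries, with Lhcgr, Cyp11a1 and Inha listed at 0 in each. The targeted gene was lower than in every siCtrl library of its stage in all siEtv5 and siRfx1 libraries and in the siMlx zygotes, but not in all siMlx 2-cell libraries, where Mlx was listed at 0.836, 2.26 and 4.05 FPKM against 2.42, 4.42 and 3.74 in siCtrl. A low level was not always particular to the siRNA of that gene. Etv5 was at 6.73 to 12.6 FPKM in siRfx1 2-cell embryos against 43.7 to 49.3 in siCtrl. Rfx1 was at 0.863 to 1.33 FPKM in siMlx zygotes against 3.05 to 3.52 in siCtrl.

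In siCtrl zygotes the members spanned a wide range of deposited FPKM, a scale already divided by transcript length. Wtap was highest at a mean of 208.8, followed by Alkbh5 at 105.6, Ythdf3 at 71.8, Ythdc1 at 40.0, Ythdf2 at 19.3, Zc3h13 at 17.4, Mettl3 at 12.7, Mettl14 at 11.0, Ythdf1 at 9.67 and Fto at 2.52 FPKM (n = 3 libraries each). Of neighbours in this order, Ythdf2 and Zc3h13, Mettl3 and Mettl14, and Mettl14 and Ythdf1 overlapped between libraries. The order in siCtrl 2-cell embryos was another: Ythdf2 came first at a mean of 173 FPKM, then Wtap at 91.9, Ythdc1 at 59.8, Alkbh5 at 51.7, Ythdf1 at 47.9, Zc3h13 at 34.9, Ythdf3 at 34.0, Mettl14 at 9.46, Mettl3 at 4.59 and Fto at 2.01 FPKM (n = 3). There the libraries of neighbouring genes overlapped from Ythdc1 through Ythdf3, and all other neighbours were separate. The plot of levels by library shows every value.

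**Figure D1:**
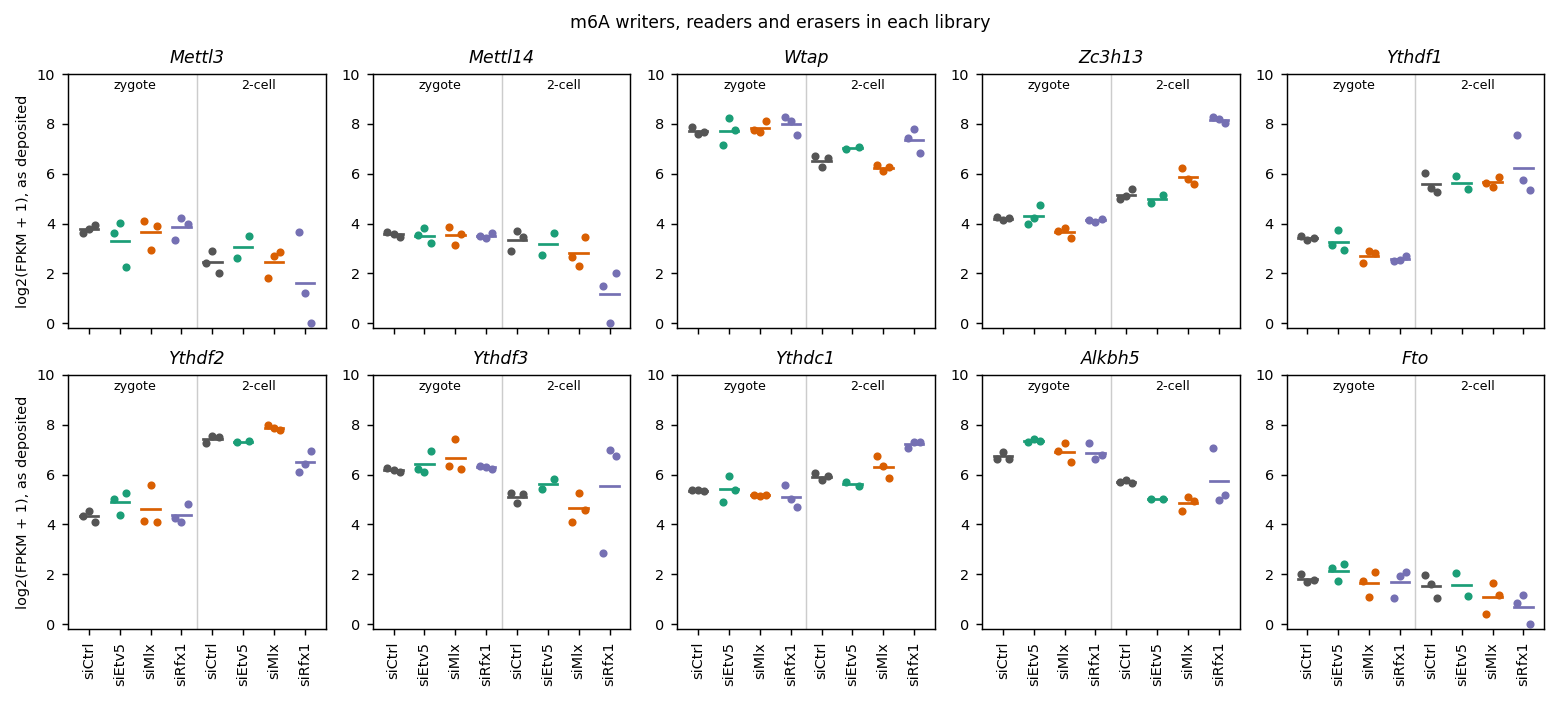
Level of each member as log2(FPKM + 1), from deposited FPKM, in all 23 libraries, with 1 panel per gene, the 8 groups along the bottom, 1 point per library and a bar at the group mean of these log values. The 3 Zc3h13 points of siRfx1 2-cell embryos (259 to 311 FPKM) lie above all other libraries of that gene, and the Ythdf3 points of that group are spread from 6.28 to 125 FPKM.

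The first comparison asked how the machinery differed between the stages without knockdown, in siCtrl 2-cell embryos against siCtrl zygotes. Of the 10 members 2 rose and 4 fell by more than 2-fold with a limma adjusted p under 0.05. The background is high in this contrast, with 37% of the 11094 genes tested called higher and 26.9% called lower, so the 6 calls were not set apart from genes in general. The median log2 difference was −0.45 over the members and 0.27 over all genes tested. By rescaled values 4 members (Zc3h13, Ythdf1, Ythdf2 and Ythdc1) had all 2-cell libraries above all zygote libraries, as did 42.1% of genes, and 4 (Mettl3, Wtap, Ythdf3 and Alkbh5) had them below, as did 33.2%. The plot of fold changes between stages sets the 10 genes side by side.

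Among the writers, the catalytic subunit fell and its partner did not pass the test. Mettl3 (chr14:52914517-52924799, minus strand, 11 exons) was at 11.1, 12.9 and 14.2 FPKM in zygotes and at 4.30, 6.39 and 3.10 FPKM in 2-cell embryos. All 2-cell values lay under all zygote values, and the log2 fold change was −1.55 (SE 0.28, limma adjusted p = 0.0014). Its last exon overlaps an exon of Tox4 on the opposite strand, and in reads without strand the 2 sources cannot be told apart there. Mettl14 (chr3:123071213-123088908, minus strand, 11 exons) was at 11.7, 11.1 and 10.1 FPKM and then at 6.39, 11.95 and 10.04 FPKM, which overlap, with a log2 fold change of −0.46 (SE 0.26, limma adjusted p = 0.147). The ratio of Mettl3 to Mettl14 was 1.17 ± 0.228 in zygotes and 0.505 ± 0.184 in 2-cell embryos (SD, n = 3), without overlap. The exact two-sided permutation p of that ratio was 0.1, the smallest that 3 libraries against 3 allow.

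The regulatory subunits went opposite ways. Wtap (chr17:13159665-13185405, minus strand) was at 231, 191 and 204 FPKM in zygotes and 103, 76.2 and 96.8 FPKM in 2-cell embryos, a log2 fold change of −1.44 (SE 0.16, limma adjusted p = 0.000109). In siCtrl, 1 of the 3 annotated Wtap transcripts held 93.2 to 98.3% of its FPKM, and in siRfx1 2-cell replicate 2 it held 64.7%. Zc3h13 (chr14:75684180-75744233, plus strand, 19 exons) was at 18.1, 16.5 and 17.6 FPKM and then at 30.6, 33.6 and 40.7 FPKM. The groups were separate, with a log2 fold change of 0.71 (SE 0.19, limma adjusted p = 0.0090) that is under the 2-fold limit.

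The cytoplasmic readers exchanged places. Ythdf2 (chr4:131740831-131768171, minus strand, 5 exons), the reader tied to transcript decay, was at 19.1, 22.3 and 16.3 FPKM in zygotes and 152, 187 and 181 FPKM in 2-cell embryos, a log2 fold change of 2.86 (SE 0.19, limma adjusted p = 8.5e-06). Ythdf1 (chr2:180639082-180655641, minus strand, 5 exons), tied to translation, was at 10.2, 9.02 and 9.82 FPKM and then at 64.5, 41.7 and 37.5 FPKM, a log2 fold change of 1.91 (SE 0.24, limma adjusted p = 0.000205). Both genes had all 2-cell values above all zygote values. Ythdf3 (chr3:16083183-16117038, plus strand) was at 76.8, 71.0 and 67.6 FPKM and then at 37.4, 28.5 and 36.1 FPKM, a log2 fold change of −1.32 (SE 0.17, limma adjusted p = 0.000251). With all 8 groups in a single fit the Ythdf3 call was lost, at −1.47 with a limma adjusted p of 0.069. All of its FPKM were on 1 of 3 annotated transcripts, a record marked as noncoding, in every library. Ythdf2 made up 19.1 ± 2.38% of the summed FPKM of the 3 YTHDF genes in zygotes and 67.9 ± 6.94% in 2-cell embryos (SD, n = 3, exact two-sided permutation p = 0.1). The summed level of the 3 genes was 93.8 to 106 FPKM as deposited in zygotes and 254 to 257 in 2-cell embryos. By exon, coverage of Ythdf2 exon 4 went from 27.0 to 40.3 in zygotes to 291 to 378 in 2-cell embryos, and that of exon 1 from 37.1 to 51.0 to 69.9 to 114, in the units of FPKM (coverage divided by the aligned bases of the library).

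The nuclear reader Ythdc1 (chr5:87233515-87265682, plus strand, 17 exons) was at 40.3, 40.4 and 39.4 FPKM in zygotes and 65.2, 53.4 and 60.9 FPKM in 2-cell embryos. These values do not overlap, yet after rescaling the log2 fold change was 0.31 (SE 0.16, limma adjusted p = 0.114). Of the demethylases, Alkbh5 (chr11:60351185-60372014, plus strand, 4 exons) was at 98.96, 120.2 and 97.8 FPKM and then at 51.0, 54.6 and 49.6 FPKM, a log2 fold change of −1.26 (SE 0.17, limma adjusted p = 0.000243). Fto (chr8:93837424-94192332, plus strand, 9 exons) was at 3.01, 2.19 and 2.37 FPKM and then at 2.95, 2.02 and 1.05 FPKM. The Fto values overlap, with a log2 fold change of −0.44 (SE 0.31, limma adjusted p = 0.232). The ratio of Alkbh5 to Fto, 43.0 and then 30.6, overlapped between stages (exact two-sided permutation p = 0.4).

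**Figure D2:**
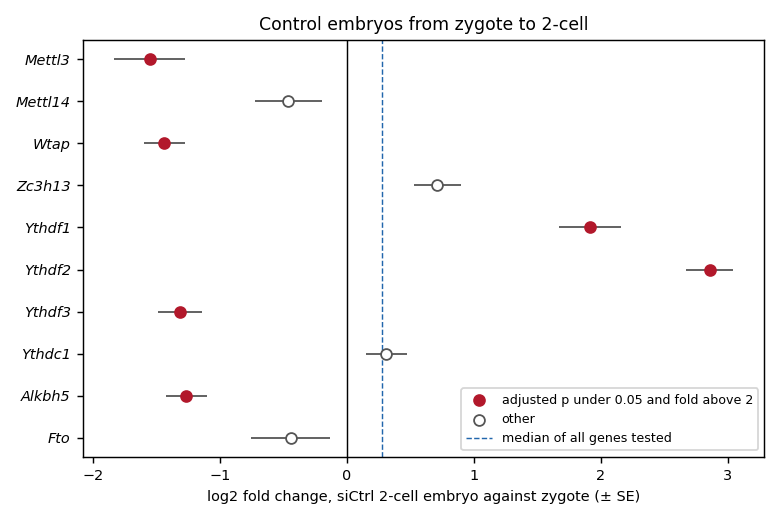
Log2 fold change of each member in siCtrl 2-cell embryos against siCtrl zygotes (n = 3 libraries each), with bars of 1 standard error, filled points for members called and a dashed line at the median of all genes tested (0.27). Ythdf2 at 2.86 and Ythdf1 at 1.91 lie to the right of that line, and Mettl3, Wtap, Ythdf3 and Alkbh5 between −1.55 and −1.26 to its left.

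Other genes of the pathway, taken as a list of writers' partners, readers, splicing factors and methyl donor enzymes, moved in both directions. Of 27 tested, 9 were called higher and 4 lower in 2-cell embryos, where 37% and 26.9% of all genes tested were. The median log2 difference was 0.43 over these genes and 0.27 over all genes tested. The calls were thus not set apart from genes in general. Rbmx, an RNA-binding protein of the spliceosome, went from a mean of 1.54 to 69.8 rescaled FPKM (log2 fold change 4.97). Mat2a, the catalytic subunit of the enzyme that makes S-adenosylmethionine, went from 35.1 to 235 (2.73), while Mat2b, the regulatory subunit of that enzyme, went from 1009 to 92.5 (−3.43). The other genes called higher were Rbm15, Cbll1, Mettl16, Igf2bp1, Fmr1, Srsf10 and Nxf1, and those called lower were Pcif1, Ythdc2 and Hnrnpc.

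The knockdown comparisons set each siRNA group against siCtrl of its stage, so the comparisons of a stage share their control libraries. In siEtv5, siMlx and siRfx1 zygotes and in siEtv5 and siMlx 2-cell embryos, limma called 0 of 10 members, against 0%, 2.15%, 0.0557%, 0.251% and 0.00945% of all genes, called in either direction. The limma-voom alternative also called 0 in each. At an unadjusted limma p under 0.05 there were 2, 2, 1, 2 and 3 members, where 12.4%, 24.7%, 14.6%, 15.5% and 18.7% of all genes had such a p. Rescaled values without overlap with siCtrl were counted in the same order. Above siCtrl there were 2, 3, 1, 2 and 2 members, where 9.07%, 14.5%, 9.8%, 19% and 10.9% of genes lay above it. Below siCtrl there were 0, 1, 1, 2 and 1, where 9.64%, 17.3%, 12%, 16.7% and 15% of genes lay below it. The heat map of knockdown fold changes holds all members, the 10 values follow, and none of them passed the adjusted test.

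In siMlx zygotes the deposited Zc3h13 (11.9, 13.2 and 9.72 FPKM) and Ythdf1 (4.30, 6.42 and 6.04 FPKM) lay below all siCtrl values, but after rescaling the log2 differences were −0.22 and −0.40 with an unadjusted p over 0.05. In zygotes 5 values had an unadjusted p under 0.05. Alkbh5 in siEtv5 zygotes was at 159, 170.3 and 163 FPKM, above the siCtrl values of 98.96, 120.2 and 97.8 FPKM (log2 fold change 0.81, limma adjusted p = 0.335). Ythdf2 in the same group was at 31.7, 19.9 and 37.1 FPKM, overlapping siCtrl (0.73, limma adjusted p = 0.396). In siMlx zygotes the values were Wtap 0.50 (limma adjusted p = 0.170) and Ythdf3 0.84 (limma adjusted p = 0.178) on the log2 scale. A single library held the top Ythdf3 value, at 173 FPKM against 81.0 and 74.4 in the others. In siRfx1 zygotes Ythdf1 was at 4.72, 4.76 and 5.52 FPKM, below the siCtrl values of 10.2, 9.02 and 9.82 FPKM (−0.68, limma adjusted p = 0.233).

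In 2-cell embryos the demethylase Alkbh5 was below siCtrl in both groups. It was at 31.8 and 31.9 FPKM in siEtv5 (log2 fold change −0.67, limma adjusted p = 0.184) and at 22.3, 33.1 and 29.7 FPKM in siMlx (−0.61, limma adjusted p = 0.250), with the 3 shared siCtrl libraries at 51.0, 54.6 and 49.6 FPKM. Zc3h13 in siMlx was at 74.1, 54.8 and 47.3 FPKM, above siCtrl in each library (0.97, limma adjusted p = 0.212). Coverage of Zc3h13 exon 1 was 1192, 558 and 285 in siMlx and 240.1, 274 and 209 in siCtrl, and that of Ythdc1 exon 1 was 1184, 813 and 359.9 against 493, 437 and 325, so replicate 1 led in both. The remaining values were Wtap in siEtv5, 0.53 (limma adjusted p = 0.261), and Ythdf2 in siMlx, 0.70 (limma adjusted p = 0.262). Of the other pathway genes 0 of 24 to 28 tested were called by limma in these 5 comparisons. At an unadjusted p under 0.05, 2 of 24, 3 of 25 and 2 of 24 were higher in siEtv5, siMlx and siRfx1 zygotes. In siEtv5 and siMlx 2-cell embryos 4 of 28 and 6 of 27 were. Of all genes 7.66%, 12.1%, 7.69%, 7.55% and 8.02% were higher at such a p, in the same order. From 0 to 2 pathway genes were lower, where at least 4.76% of all genes were in each comparison. Whether these counts differ from the shares of all genes was not tested. The gene with the smallest p was Srsf3 in siEtv5 zygotes (−0.79, limma adjusted p = 0.374), Rbm15b in siMlx zygotes (−1.09, limma adjusted p = 0.053), Mettl5 in siRfx1 zygotes (1.22, limma adjusted p = 0.233), Hrsp12 in siEtv5 2-cell embryos (1.48, limma adjusted p = 0.165) and Mat2b in siMlx 2-cell embryos (0.86, limma adjusted p = 0.159).

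**Figure D3:**
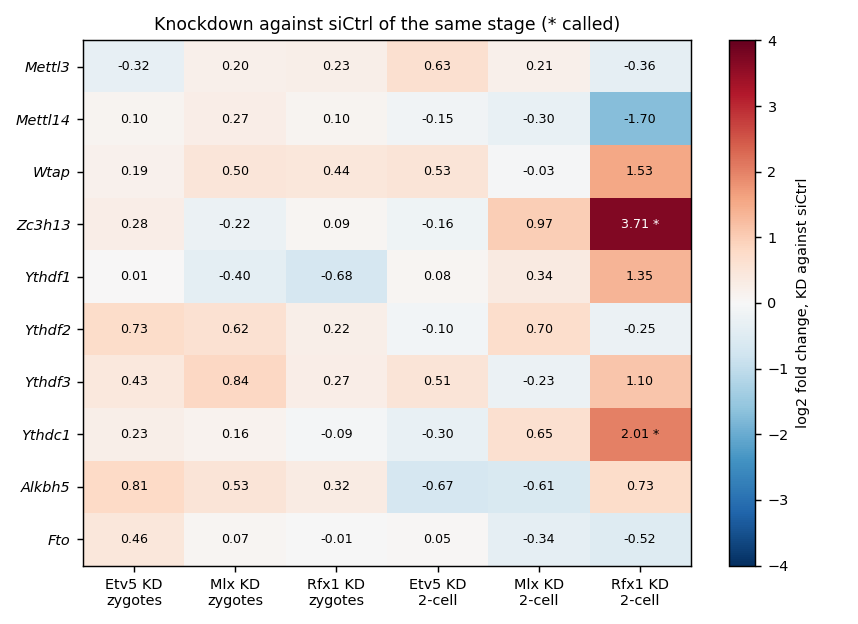
Log2 fold change of each member (down the side) against siCtrl of the same stage in the 6 knockdown (KD) comparisons (along the bottom), printed in each cell and shown as color from −4 to 4, with a star on values called. The stars are on Zc3h13 at 3.71 and Ythdc1 at 2.01 in siRfx1 2-cell embryos.

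In siRfx1 2-cell embryos 2 of 10 members rose and 0 fell, where 2.12% of the 10302 genes tested were called higher and 1.45% lower. Zc3h13, the writer subunit, reached 311, 296 and 259 FPKM, while siCtrl had 30.6, 33.6 and 40.7 FPKM. Its rescaled means were 373 ± 36.3 and 27.6 ± 4.06 (SD, n = 3), which is 3.71 on the log2 scale (SE 0.28, limma adjusted p = 0.0038). Ythdc1, the nuclear reader, was at 135, 158 and 157 FPKM against 65.2, 53.4 and 60.9 FPKM, with rescaled means of 194 ± 16.3 and 47.3 ± 5.04 (SD, n = 3), or 2.01 on the log2 scale (SE 0.28, limma adjusted p = 0.0165). Neither gene overlapped siCtrl. By rescaled values 4 members lay above all siCtrl libraries (Wtap, Zc3h13, Ythdf1 and Ythdc1), as did 10.4% of genes, and 1 below (Mettl14), as did 20.8%. The median log2 difference was 0.92 over the members and −0.25 over all genes tested, so values here are read relative to that shift. Without siCtrl replicate 1 or replicate 2 limma called 0 members and 0 genes in all, and without siCtrl replicate 3 it called Zc3h13 alone, among 5 genes in all. The log2 fold changes moved little without replicate 1 or 2, to 3.62 and 3.67 for Zc3h13 and 2.07 and 1.92 for Ythdc1. With a replicate block Zc3h13 stayed called and Ythdc1, still at 2.01, did not (limma adjusted p = 0.063). The siRfx1 2-cell libraries also had the lower depth, the higher oocyte marker sum and the lower 2-cell marker sum given above. The part of each in the result was not tested. The oocyte sum was also above siCtrl in siEtv5 2-cell embryos, and the 2-cell sum was below it in siMlx 2-cell embryos. In both groups limma called 0 members.

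The remaining members did not pass the test in siRfx1 2-cell embryos, several with a wide spread. Wtap was at 171, 221 and 114 FPKM against 103, 76.2 and 96.8, with a log2 fold change of 1.53 (limma adjusted p = 0.052). Mettl14 was at 1.84, 0 and 3.02 FPKM against 6.39, 11.95 and 10.04, below siCtrl in each library (−1.70, limma adjusted p = 0.231). Mettl3 was at 11.7, 1.32 and 0 FPKM, and the 11.7 came from exon 10 of 113 bases, with coverage 208. Ythdf1 was at 186, 53.2 and 40.1 FPKM against 64.5, 41.7 and 37.5 (1.35, limma adjusted p = 0.228), Ythdf2 at 67.0, 84.8 and 123 FPKM against 152, 187 and 181 (−0.25), and Ythdf3 at 6.28, 125 and 108 FPKM against 37.4, 28.5 and 36.1 (1.10). Deposited Ythdf2 thus lay under siCtrl in each library, and the rescaling brought its difference near 0. Ythdf2 made up 34.5 ± 9.95% of the 3 YTHDF genes against 67.9 ± 6.94% in siCtrl (exact two-sided permutation p = 0.1). In siMlx it made up 75.7 ± 3.76% (p = 0.1, exact permutation), so the mean shares lay on opposite sides of siCtrl. The siMlx side was a narrow one, with its lowest library at 72.9% and the highest siCtrl library at 72.7%. Alkbh5 was at 134, 30.9 and 35.8 FPKM (0.73) and Fto at 0.806, 1.24 and 0 FPKM (−0.52), both overlapping siCtrl. Of 26 other pathway genes 1 was called higher and 0 lower, where 2.12% and 1.45% of all genes tested were. That gene, Igf2bp3, a reader that stabilizes its targets, went from 17.2 ± 2.20 to 123 ± 58.5 rescaled FPKM (2.66, limma adjusted p = 0.031).

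The rise of Zc3h13 and Ythdc1 lay mostly in 1 exon of each gene, the 2 exons whose purine-rich stretches are printed above. Exon 12 of Zc3h13 (601 bases, chr14:75727351-75727951) had a coverage of 2414, 2555 and 2337 in siRfx1 2-cell embryos. It had 18.2, 21.0 and 30.4 in siCtrl, 13.6 and 13.8 in siEtv5, 30.7, 37.0 and 28.0 in siMlx, and 6.45 to 26.4 in all zygotes. This exon is 9.77% of the transcript's length, and it held 75.8 to 88.2% of the gene's coverage in siRfx1 2-cell embryos and 5.83 to 7.31% in siCtrl. Exon 1 of the same gene went the other way, with 45.03, 108 and 117 against 240.1, 274 and 209. Exon 14 was at 124, 128 and 33.6 against 18.0, 23.1 and 25.4, above siCtrl by less than exon 12. Exon 4 of Ythdc1 (427 bases) had a coverage of 543, 642 and 794 against 50.8, 48.0 and 43.2 in siCtrl. It is 14.1% of the length and held 56.8 to 71.0% of the gene's coverage against 9.99 to 12.7%. Outside these exons, a split chosen after the values were seen, Zc3h13 was at 83.4, 51.0 and 33.8 FPKM against 31.9, 34.9 and 41.8 (log2 fold change 1.22, limma adjusted p = 0.152). Ythdc1 outside exon 4 was at 67.6, 78.3 and 53.1 FPKM against 67.5, 54.3 and 63.8 (0.79, limma adjusted p = 0.205). These log2 fold changes are after rescaling, while the FPKM and exon coverages of this paragraph are not rescaled, so they are not on 1 scale. Neither gene was called without its exon.

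**Figure D4:**
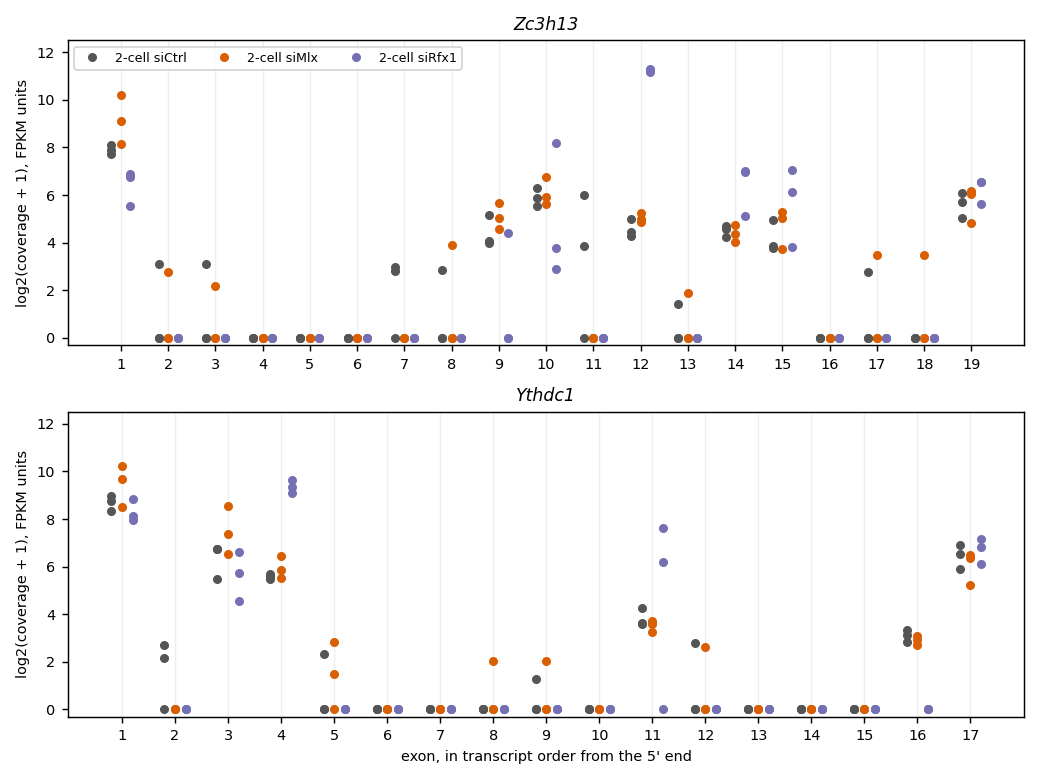
Coverage of each exon of Zc3h13 and Ythdc1 as log2(coverage + 1), in the units of FPKM, in siCtrl, siMlx and siRfx1 2-cell embryos, with exons in transcript order along the bottom and 1 point per library. Exon 12 of Zc3h13 stands at a coverage of 2337 to 2555 and exon 4 of Ythdc1 at 543 to 794 in siRfx1, and most short exons lie at 0.

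Such exons were few among the exons compared, a set that leaves out exons low or at 0 in siCtrl. Of the 12459 exons with a coverage of at least 10 in every siCtrl 2-cell library, 11 exons of 10 genes were at least 10-fold above all siCtrl libraries in every siRfx1 2-cell library, and 1887 were at least 10-fold lower. The siRfx1 2-cell libraries were the shallow ones, at 119 to 174 Mb, and the part of depth in these counts was not tested. Both members were among the 10 genes, the others being Drosha, Eif5b, Hsp90aa1, Kmt2d, Rbm25, Srek1, Trim44 and Usp34. The exons of the 2 members had been chosen after the values of these libraries were seen. Their place here and their ranks by ratio are thus no further result. The count of exons at least 10-fold higher was 0 in siEtv5 and 0 in siMlx 2-cell embryos. The median purine content of the 11 exons was 71.0%, and 8 of the 11 were at least 60% purine, against 6.40% of all exons. Both chosen exons count in these values, and the median is that of Ythdc1 exon 4. Zc3h13 exon 12 ranked 1 by the ratio of means (105-fold) and 2 by purine content. Ythdc1 exon 4 ranked 19 by the ratio (13.9-fold) and 51 by purine content. Among exons of at least 300 bases, the median log2 difference in siRfx1 2-cell embryos was −1.36 for exons under 45% purine (537 exons) and −0.67 for 55 to 60% (583 exons). It was 0.28 for 60 to 65% (140 exons) and 1.75 for 65% and more (37 exons). More than 2-fold higher were 73.0% of these 37, 33.6% at 60 to 65%, 20.2% at 55 to 60% and smaller shares in each class below. More than 2-fold lower were 44.6% at 55 to 60%, 27.9% at 60 to 65% and the smallest share at 65% and more. Both chosen exons are among the 37. Over the same classes the medians lay between −0.28 and −0.07 in siEtv5, without a steady trend. In siMlx they rose with each class, from −0.41 under 45% purine to 0.09 at 65% and more, a smaller rise in the same direction as in siRfx1. These exon differences are on coverage without the rescaling used for the gene fold changes. Exons of 1 gene share its level, and the cause of the relation was not tested.

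**Figure D5:**
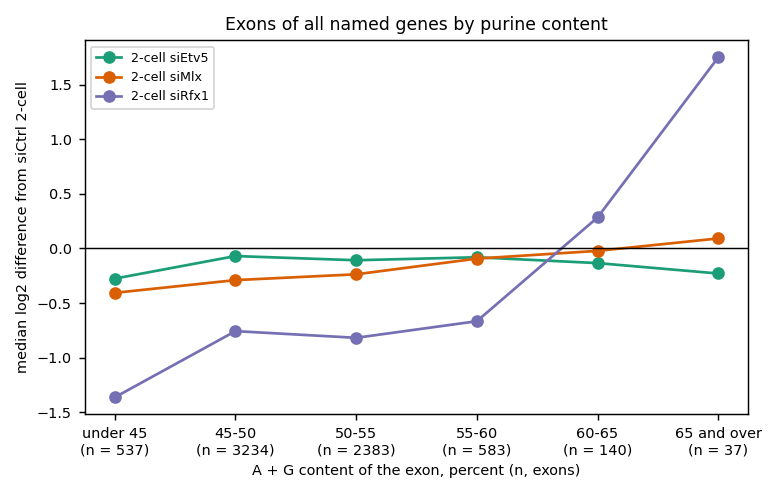
Median log2 difference of exon coverage from siCtrl 2-cell embryos in siEtv5, siMlx and siRfx1, by the purine content of the exon (percent), for exons of at least 300 bases. The siRfx1 medians go from −1.36 under 45% purine to 1.75 at 65% and more.

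Exon coverage carried a limit that touches all members. In genes of at least 50 FPKM, a library listed 68.9 to 95.7% of exons under 100 bases at 0, and 3.86 to 12.1% of those of 300 bases or more. Of the members' own exons, 19 of the 30 under 100 bases were at 0 in all 23 libraries, as were 14 of the 33 from 100 to under 200 bases and 0 of the 35 longer ones. Of the members' 89 introns 88 start with GT and end with AG at the given coordinates, so the exon borders match this genome. Levels of members rest mainly on their long exons, and the cause was not tested.

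Where along the transcript the coverage lay also differed between siCtrl and knockdown libraries. The 5′ coverage share is the percent of a gene's coverage on the 50% of its bases nearest the 5′ end, for genes with 1 exon structure at 5 FPKM or more. In siEtv5 zygotes 3 of 7 members (Ythdf1, Ythdc1 and Alkbh5) had all libraries above siCtrl, where 15.2% of all genes did. In siMlx zygotes 5 of 7 members did (Mettl3, Mettl14, Ythdf1, Ythdc1 and Alkbh5), where 34.8% of genes did, and in siRfx1 zygotes 2 of 7 (Ythdc1 and Alkbh5), where 32.7% did. Alkbh5 had a share of 61.5 ± 5.05% in siCtrl zygotes and 78.1 ± 2.08, 78.4 ± 3.16 and 76.6 ± 6.55% in siEtv5, siMlx and siRfx1 (SD, n = 3, exact two-sided permutation p = 0.1 each). Its exon 1 had a coverage of 146, 235 and 194 in siCtrl and 420.0, 489.9 and 442 in siEtv5, while exon 4 had 87.7, 86.1 and 69.1 against 74.9, 66.6 and 73.0. Ythdc1 had 63.6 ± 1.97% in siCtrl and 76.5 ± 2.39, 76.9 ± 4.65 and 76.8 ± 5.62% in the same order (SD, n = 3, exact permutation p = 0.1 each). The 3 sets share the siCtrl libraries. Genes in general shifted the same way, with a median difference from siCtrl of 2.61, 5.52 and 4.90 percentage points in the same order.

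In 2-cell embryos the 5′ coverage share of 2 of 7 members, Zc3h13 and Alkbh5, was below siCtrl in both siEtv5 libraries, where 17.9% of genes were. In siMlx 2-cell embryos 1 of 6 members, Ythdf2, was above siCtrl, where 9.92% of genes were. In siRfx1 2-cell embryos 2 of 5 members were above siCtrl, Zc3h13 and Ythdc1, where 3.71% of genes were. For these 2 genes the share repeats the coverage of exon 12 and exon 4 given above and is no further result. There, 3 of 5 members were below, Ythdf1, Ythdf2 and Alkbh5, where 31.4% were. Between stages 3 of 7 members, Mettl3, Mettl14 and Ythdf2, had a lower share in siCtrl 2-cell embryos than in siCtrl zygotes, where 31.4% of genes did.

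Whether a knockdown acted differently at the 2 stages was asked with an interaction term in limma. For siEtv5 it called 0 members (background 0.316%), with Alkbh5 lowest in p at −1.51 (limma adjusted p = 0.060), and 2 of 10 members had an unadjusted p under 0.05, as did 18.1% of genes. Alkbh5 was above siCtrl in siEtv5 zygotes and below it in siEtv5 2-cell embryos in every library. By voom it was the 1 member called, as it was by limma without zygote siEtv5 replicate 1 or 2 (adjusted p = 0.046 and 0.022). Over all genes these 3 fits called 48, 56 and 711, against 35 with all libraries in limma. For siMlx it called 0 members (background 1.16%, and 0 by voom), and 3 of 10 had an unadjusted p under 0.05, as did 16.1% of genes, with Alkbh5 at −1.18 (limma adjusted p = 0.123). For siRfx1 it called 2 higher and 0 lower, where 3.04% and 6.92% of genes were. These were Zc3h13 at 3.37 (SE 0.32, limma adjusted p = 0.00039) and Ythdc1 at 1.84 (SE 0.39, limma adjusted p = 0.0156), with a median over all genes of −0.40. Outside their 2 exons neither was called. Without 2-cell siRfx1 replicate 3, Mettl14 at −2.34 (limma adjusted p = 0.020) and Ythdf1 at 2.22 (limma adjusted p = 0.029) were called as well, and without replicate 1, Ythdf3 at 1.94 (limma adjusted p = 0.0020). Those fits called 2253 and 1931 genes in all, against 1074 with all libraries. In zygotes the 2 genes were at 16.6, 15.7 and 17.2 FPKM (Zc3h13) and at 47.2, 31.5 and 25.1 FPKM (Ythdc1) in siRfx1, overlapping siCtrl. Of 26 other pathway genes, 3 were called higher in the siRfx1 interaction and 1 lower, among them Igf2bp3 at 2.81 (limma adjusted p = 0.0054) and Cnot1, a scaffold of the CCR4-NOT deadenylase, at 2.18 (limma adjusted p = 0.023). The gene called lower was Mettl5, a ribosomal RNA methyltransferase, which was listed at 0 in all 3 siRfx1 2-cell libraries, the shallow ones, and at 3.44 FPKM or more in each siCtrl 2-cell library, so no fold is given.

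Promoters of 8 of the 10 members were matched in RefSeq (build GRCm38.p6, 250 bases before to 50 after the start). Searched on both strands, the letters CACGTG, a site bound by MLX and its partners, were in that of Ythdf1 and in 7.15% of all 32851 promoters. The letters CCGGAAG, of the ETS type that ETV5 belongs to, were in those of Mettl3 and Zc3h13 and in 8.86% of all, and GTTGCCA, part of the X-box bound by RFX factors, was in 0 of the 8 and in 4.38% of all. A match is a description of letters in this window.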

How the data were processed

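Per the file headers and the submitters' processing notes, the authors aligned reads with STAR 2.5.2b and estimated transcript levels with StringTie (1.3.4 in the notes, 1.3.3b in the headers) on mm9. The deposited files give FPKM per transcript and coverage per exon and transcript for each library, with no raw counts. The 29306 transcripts were summed per gene name, and 976 without one (0.610 to 1.48% of FPKM) were left out. For each comparison FPKM were rescaled by the median ratio to a common reference over genes of at least 1 FPKM in all its libraries, genes with a mean of at least 1 were kept, and log2(FPKM + 1) was tested with limma 3.58.1 (trend) in R 4.3.3 with Benjamini-Hochberg adjustment over all genes. Fold changes are on this scale, which understates changes of low genes. A call needed an adjusted p under 0.05 and more than 2-fold. Exon coverage deposited by the authors was scaled to FPKM units by the aligned bases. Ratios and shares had exact permutation tests. Genes named were the 10 members, and of a list of other pathway genes the 3 called with the largest absolute log2 fold change per comparison, or the 1 with the smallest p where none was called. The others called at the stage comparison are listed without values, and the 2 exons split off were chosen after their values were seen. Steps were tested on simulated data. The members and lists were chosen with earlier results of these data known. Depth was 119 to 991 Mb aligned, and no counting interval was computed from FPKM. Python 3.11.15, numpy 2.4.6, pandas 2.3.3 and matplotlib 3.10.9 were used. Alternatives covered scaling, pseudocount, filter, voom, a single fit, a length trend, a replicate block and left-out libraries.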

Additional observations from a re-analysis of the deposited data

Results flagged for a closer look

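The siRfx1 effect on 2 members differed between the stages by the interaction term in limma, a test of the difference itself. Zc3h13 differed by 3.37 on the log2 scale (SE 0.32, limma adjusted p = 0.00039, n = 3 libraries per group), and was higher than in every siCtrl library in 3 of 3 siRfx1 2-cell libraries. Ythdc1 differed by 1.84 (SE 0.39, limma adjusted p = 0.0156, n = 3), again higher in 3 of 3. Outside exon 12 of Zc3h13 and exon 4 of Ythdc1 neither was called. The depth and the marker sums of the siRfx1 2-cell libraries also differed from siCtrl, and their part in both values was not tested.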

How the results depend on the processing

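The 5 other knockdown comparisons and the siMlx interaction had 0 members called in every alternative run, and the stage comparison, with 6, had 5 (single fit) to 7 (voom, or no fold limit). In siRfx1 2-cell embryos the count of 2 became 1 with a replicate block and 0 outside 1 exon each of Zc3h13 and Ythdc1 (added after seeing the data), and 0 to 3 with 1 library left out. Without siCtrl replicate 1 or 2 limma called 0 genes in all, against 367 with all libraries, 87 with the block and 1331 on FPKM as deposited. Wtap was called there with a pseudocount of 0.1, the 5 FPKM filter, a single fit and without siRfx1 replicate 3 (limma adjusted p = 0.018 to 0.047), and Ythdf3 without siRfx1 replicate 1. The siEtv5 interaction count of 0 became 1 with pseudocount 0.1, no low-value filter, a 5 FPKM filter or voom, and was 0 to 1 with 1 library left out. The siRfx1 interaction count of 2 became 3 with FPKM as deposited or voom and 4 with all groups in a single fit. It was 0 outside those exons, and 2 to 4 with 1 library left out. Mettl14 was the member added with FPKM as deposited (−2.12, limma adjusted p = 0.0495) and by voom (−2.50, limma-voom adjusted p = 0.0487). The single fit added Mettl14 (−1.88, limma adjusted p = 0.0433) and Ythdf1 (1.81, limma adjusted p = 0.0455). The Ythdf3 interaction for siRfx1, 0.58 and not called, turned to −0.15 without 2-cell siRfx1 replicate 2 and −0.044 without replicate 3, and was 1.94 (limma adjusted p = 0.0020) without replicate 1. The cause was not tested. Of 31 member values followed, it was the 1 that changed sign. Of 69 others, none of them called, 32 changed sign in an alternative. Same-numbered libraries correlated at −0.128 to 0.184. No correlation of differently numbered libraries was computed beside them, so these values cannot tell whether replicate numbers pair the libraries. The block changed the count of members in no comparison other than siRfx1 2-cell embryos. Depth was lowest in siRfx1 2-cell embryos. Short exons were mostly listed at 0, which limits exon values.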

Other observations

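By the correlation of mean log2 levels over the 8 groups among 6942 genes, a description over 8 points that share libraries, the genes with the pattern most like Zc3h13 were Ccdc88a (0.989), 4930478L05Rik (0.987) and Kif1b (0.977), and those most like Ythdc1 were Pnn (0.978), Prpf19 (0.970) and Il17rd (0.966). Of these, 4930478L05Rik was at 84.0, 26.8 and 0 FPKM in siRfx1 2-cell embryos and at group means of 0 to 1.73 FPKM elsewhere, so its place rests on that 1 group. It also passed the minimum mean of 5 FPKM for this list only through that group. Zc3h13 itself was at a mean of 289 FPKM there and at group means of 11.6 to 58.7 FPKM elsewhere. All likenesses to Zc3h13 therefore lean on that group.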
